A study of Mus musculus with 6 samples.

Results

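The TAM receptors Tyro3, Axl and Mertk and their ligands Gas6 and Pros1 were described in RNA-seq of cultured mouse bone stromal cells with and without intact Zeb1. The 5 genes were taken by name from the 54532 genes of the deposited table, and all 5 were found once. Femurs and tibias were cut to chips, treated with collagenase and cultured, and fluorescent cells of the Prx1 lineage were sorted from the cultures. WT cells carried Prx1-Cre, the ROSA-YFP reporter and unaltered Zeb1 (Zeb1wt/wt), and Zeb1Prx1 cells carried the same Cre and reporter with Zeb1fl/fl, so that Cre and reporter were common to both groups. Cre from the Prx1 promoter acts in limb mesenchyme and its descendants. The cells were untreated, each genotype had 3 libraries, and the age of the mice is not given in the sources used here. Nothing in the labels ties the replicates to different mice or cultures; the p-values therefore reflect only how far these libraries spread, which may be technical.

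TAM receptors are receptor tyrosine kinases that do not bind their main target directly. Gas6 and protein S (the product of Pros1) are vitamin K-dependent bridging proteins: a carboxylated amino-terminal Gla domain holds phosphatidylserine on dying cells, and the other end of the ligand binds the receptor. Gas6 can activate each of the receptors, whereas protein S acts on Tyro3 and Mertk. In macrophages the receptors drive the uptake of apoptotic cells and dampen inflammatory signalling; Mertk is the typical receptor of resting tissue macrophages, and Axl is also widespread in fibroblasts and other mesenchymal cells. Tyro3 is best known from the nervous system and has also been studied in osteoclasts.

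Fragments assigned to genes numbered 14724357 to 18354894 per library. Zeb1, the targeted gene, had 6.61, 10.3 and 7.12 FPKM (fragments scaled to gene length and library depth) in WT replicates 1, 2 and 3 and 1.92, 1.59 and 2.84 in the mutant ones, so each mutant library lay below each WT library (limma adjusted p = 0.229). Tests were made with limma, a linear model fitted to log2(FPKM + 1) of the genes with at least 1 FPKM in at least 3 libraries, with p-values adjusted over all of them and a threshold of 0.05. Transcripts of macrophages were abundant although cells of the Prx1 lineage had been sorted: Lyz2 (lysozyme) had 7034 to 16368 FPKM over the 6 libraries, Ctss 618 to 1378 and Lgals3 338 to 683. The sorted lineage was represented by Col1a1 (1432 to 3368 FPKM), Col1a2 (465 to 1054) and Col3a1 (160 to 1256). Some libraries stood apart. WT replicate 1 had the lowest mean log2(FPKM + 1) of 20 skeletal stromal markers, 4.51 against 4.97 to 5.81 in the other 5. In Zeb1Prx1 replicate 2 the fragments came from shorter genes, with a mean gene length per fragment of 4785 bases against 5692 to 6051 in the other 5. Zeb1Prx1 replicate 3 had the highest stromal mean (5.81). Its 12 chondrocyte markers summed to 2548 FPKM, against 14.5 to 558 in the other 5. In cultures of mixed cells, fewer cells of a type and less RNA per cell cannot be told apart.

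The genes lie on 4 chromosomes, in coordinates of mm10 from the file that are identical in GENCODE M21. Axl (ENSMUSG00000002602) spans chromosome 7, 25757273 to 25788705, minus strand; its longest coding transcript has 20 exons. Mertk (ENSMUSG00000014361, 128698956 to 128802894, plus strand, 19 exons) and Tyro3 (ENSMUSG00000027298, 119797733 to 119818104, plus strand, 20 exons) share chromosome 2. Gas6 (ENSMUSG00000031451) spans chromosome 8, 13465374 to 13494490, minus strand, and Pros1 (ENSMUSG00000022912) chromosome 16, 62854307 to 62929346, plus strand; each has 15 exons. No stretch of 31 bases in the longest coding transcripts of Axl, Mertk, Tyro3 and Pros1 occurred in a transcript of another gene, and 7 of 2518 in Gas6 occurred in Tmem255b, whose 3′ end overlaps that of Gas6 on the opposite strand. Tmem255b had 69 fragments over the 6 libraries against 16242 or more per library for Gas6. Inside Mertk, the antisense gene Gm14011 had 4 fragments in all.

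The promoters are shown because Zeb1 is a repressor that binds E-boxes of the form CAGGTG, read as CACCTG on the opposite strand, and because Axl and Mertk were the members with a log2 change below 0. All 5 genes had 1 window in the RefSeq promoter table (GRCm38.p6, 250 bases before to 50 after the start site). None of the 5 windows held either form of the E-box, which 20.2% of all 32851 windows of that length held. The Tyro3 window lies 1781 bases from the GENCODE start of the deposited gene, and 128 of its 250 upstream bases are GENCODE exon, so it is not the promoter of that start. GC boxes, GGGCGG on one strand and therefore CCGCCC on its complement, are bound by Sp1-type factors. They were in all 5 windows and in 35.7% of all windows. The GC content of the 5 windows was 58.3% to 73.3%, against a median of 52.7% over all windows, and 77.1% of the 11074 windows at or above 58.3% held a GC box. The windows had 2 GC boxes in Axl, 4 in Mertk, 6 in Tyro3, 4 in Gas6 and 5 in Pros1, both strands counted. With no E-box in the 5 windows, the motifs overlapped in none of them. A match describes the letters and not a bound site, and a missing E-box says only that these letters are not in the window. The 250 bases before the RefSeq start of Axl (chr7:25788734-25788983, minus strand) and of Mertk (chr2:128698665-128698914, plus strand) read as follows, 5′ to 3′, with GC boxes in capitals.
Axl: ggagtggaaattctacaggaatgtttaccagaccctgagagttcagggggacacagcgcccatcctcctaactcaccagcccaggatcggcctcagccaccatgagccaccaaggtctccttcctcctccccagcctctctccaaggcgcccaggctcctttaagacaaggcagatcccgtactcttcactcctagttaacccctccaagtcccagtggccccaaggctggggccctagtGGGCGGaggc
Mertk: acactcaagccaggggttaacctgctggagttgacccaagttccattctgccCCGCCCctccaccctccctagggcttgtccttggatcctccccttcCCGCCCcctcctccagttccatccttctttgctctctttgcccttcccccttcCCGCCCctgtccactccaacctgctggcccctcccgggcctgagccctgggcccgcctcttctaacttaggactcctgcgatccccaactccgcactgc
These stretches held 1 GC box in Axl, next to the start site, and 3 in Mertk, spread over its upstream part.

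Axl was the most abundant receptor and the one whose genotypes did not overlap. It had 125, 58.3 and 63.6 FPKM in WT replicates 1, 2 and 3 and 45.7, 52.9 and 28.0 in Zeb1Prx1. Each mutant library was below each WT library, by a narrow margin between WT replicate 2 and Zeb1Prx1 replicate 2, while WT replicate 1 lay far above the rest. The means were 82.4 ± 37.2 and 42.2 ± 12.8 FPKM (SD, n = 3), 0.512-fold. On the log2(FPKM + 1) scale the change was -0.91 (SE 0.36, 95% interval -1.76 to -0.06), which did not pass over all genes by limma (unadjusted p = 0.0386, adjusted p = 0.317). Axl was 1 of 5 members without overlap and 1 of 5 at an unadjusted p under 0.05. Of the 12534 genes tested, 24.4% showed no overlap (11.8% lower in the mutant and 12.6% higher), and 15.1% had an unadjusted p under 0.05 (6.98% lower and 8.15% higher), so the members' counts are near the background. A share of 1.26% of genes had a change as low as that of Axl or lower. Limma called 0 genes over the whole table (0.0%; 1897 at an unadjusted p under 0.05), and voom, the form of limma for counts, also called 0 on recovered fragments (1931). Without WT replicate 1, the highest library, the change of Axl was -0.57 (limma adjusted p = 0.484). Without Zeb1Prx1 replicate 3, the lowest library, it was -0.65 (limma adjusted p = 0.494). The unadjusted limma p was above 0.05 in each of these fits (0.108 and 0.117). With the mean of 20 macrophage markers as a covariate the change of Axl was -0.47 (adjusted p = 0.608).

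Mertk, the receptor typical of macrophages, was intermediate. WT replicates 1, 2 and 3 had 14.3, 18.5 and 14.8 FPKM and the mutant libraries 15.5, 5.99 and 11.3. Zeb1Prx1 replicate 1 lay within the WT range, replicate 3 below it, and replicate 2 at the bottom with 468 fragments (exact 95% Poisson interval 5.46 to 6.56 FPKM, counting error only). The means were 15.9 ± 2.30 and 10.9 ± 4.77 FPKM, and the log2 change was -0.58 (SE 0.31, interval -1.32 to 0.16; limma adjusted p = 0.39). Without Zeb1Prx1 replicate 2, the library with fragments from shorter genes, the change was -0.24 (adjusted p = 0.577). In that library Mertk (4336 bases) was 1.03 below the mean of the other mutant libraries on the log2 scale (a deviation of -1.03). The median deviation of the 6251 tested genes of at least 4000 bases was -0.18. The longer members were not low there: Axl (5033 bases) deviated by 0.55 and Tyro3 (6198 bases) by 0.06. Gas6 (2548 bases) and Pros1 (4088 bases) each had -0.20. The part of gene length in the value of Mertk was not tested. With the macrophage covariate the change of Mertk was -1.15 (adjusted p = 0.216). Relative to Csf1r, the receptor of the macrophage growth factor, Mertk had 0.0316 to 0.0329 of its FPKM in WT and 0.0413, 0.0175 and 0.0448 in the mutant. The ratio to Csf1r was thus nearly constant in WT and lay on either side of the WT range in Zeb1Prx1. The ratio to Adgre1, another macrophage marker, varied more in WT, at 0.0666, 0.0806 and 0.0593. In the mutant it was 0.0946, 0.0504 and 0.0962.

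Tyro3 was the least abundant member and not far above the minimum of 1 FPKM for testing, which it passed in all 6 libraries. It had 1.97, 1.79 and 1.5 FPKM in WT and 1.89, 2.26 and 2.39 in the mutant, from 143 to 253 fragments per library. Replicate 1 of the mutant lay inside the WT range and the other mutant libraries above it. Counting error alone allowed 1.27 to 1.77 FPKM in WT replicate 3, the lowest library, and 2.09 to 2.72 in Zeb1Prx1 replicate 3, the highest. The means were 1.75 ± 0.234 and 2.18 ± 0.261, with a log2 change of 0.21 (SE 0.15, interval -0.15 to 0.57; limma adjusted p = 0.5). When every library was scaled to the same FPKM total, the change of Tyro3 was 0.10 (adjusted p = 0.772).

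**Figure D1:**
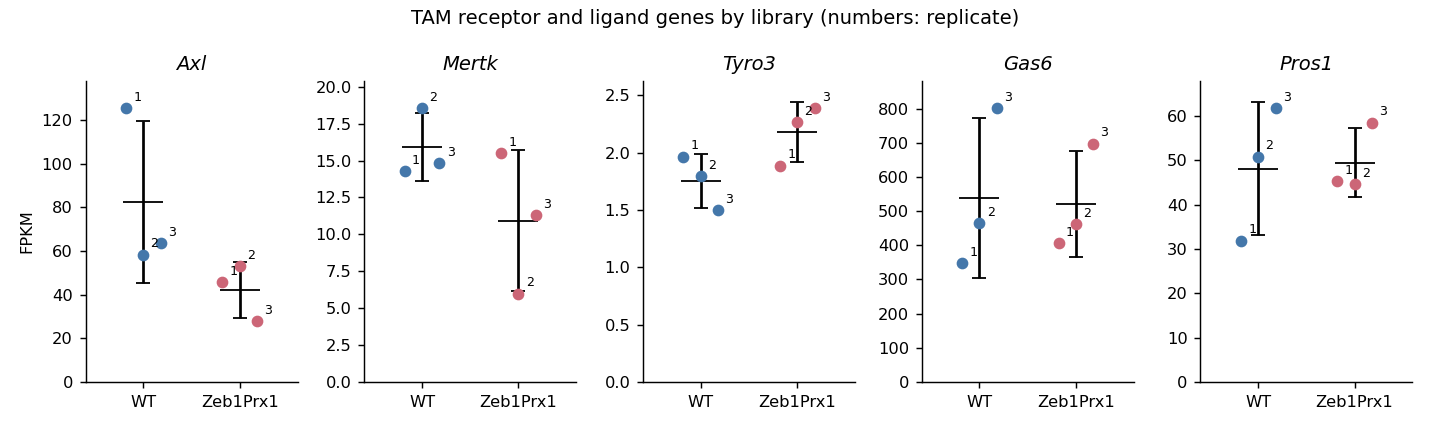
FPKM of the 5 genes in each library (vertical axes start at 0 and differ between panels), with replicate numbers beside the points, the mean as a horizontal line and the SD as error bars (n = 3 per genotype). The genotypes overlap for Mertk, Tyro3, Gas6 and Pros1, and for Axl the mutant libraries (28.0 to 52.9) lie below the WT libraries (58.3 to 125).

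Axl supplied most of the receptor transcripts in each library. Summed over the receptors, there were 142, 78.6 and 79.99 FPKM in WT replicates 1, 2 and 3 and 63.1, 61.1 and 41.7 in the mutant, with no overlap. Axl was 88.5%, 74.1% and 79.6% of the sum in WT and 72.4%, 86.5% and 67.2% in the mutant, ranges that overlap. Mertk gave 10.1% to 23.6% in WT and 9.80% to 27.1% in the mutant. The smallest share, that of Tyro3, was 1.39% to 2.28% in WT and 2.99% to 5.72% in the mutant, without overlap. These sums and shares follow from the single genes and were not tested. The highest Axl share of each genotype was in WT replicate 1, where Axl was highest, and in Zeb1Prx1 replicate 2, where Mertk was lowest.

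**Figure D2:**
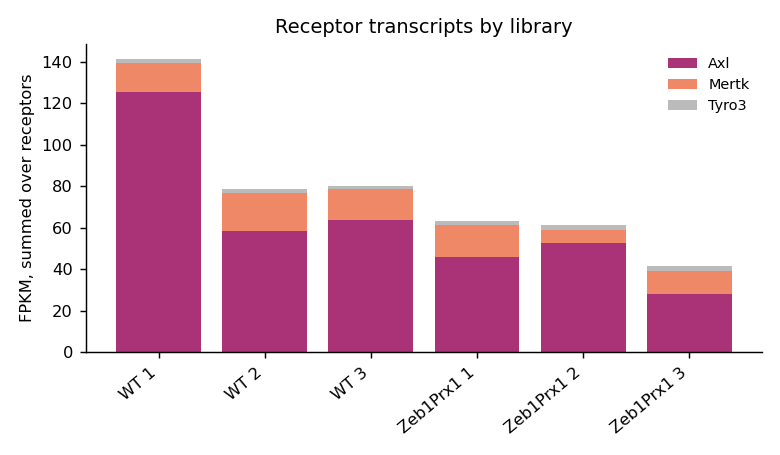
Summed FPKM of Axl, Mertk and Tyro3 (stacked bars from 0) in each library. The WT bars reach 78.6 to 142 and the mutant bars 41.7 to 63.1, with Axl the largest part of each.

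The ligand Gas6 was far more abundant than any receptor, and its libraries spread widely within each genotype. It ranked 48 among the 12534 tested genes by mean FPKM. WT replicates 1, 2 and 3 had 348, 465 and 801 FPKM and the mutant libraries 406, 463 and 698. The genotypes covered nearly the same range, with the highest value in replicate 3 of each. Means were 538 ± 235 and 522 ± 155 FPKM, and the log2 change was 0.00 (SE 0.37; limma adjusted p = 0.995). The 95% interval, -0.87 to 0.88, leaves room for differences of either sign. The change was -0.26 without WT replicate 1, -0.06 without WT replicate 2, -0.22 without Zeb1Prx1 replicate 3 and 0.33 without WT replicate 3, so its sign rested on single libraries.

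Pros1, the gene of the anticoagulant protein S, was lower than Gas6 in every library. It had 31.9, 50.8 and 61.7 FPKM in WT and 45.3, 44.7 and 58.5 in the mutant. All mutant libraries lay inside the WT range, and WT replicate 1 was the lowest of the 6. The means were 48.2 ± 15.1 and 49.5 ± 7.81, with a log2 change of 0.08 (SE 0.26, interval -0.55 to 0.70; limma adjusted p = 0.89). It was -0.19 without WT replicate 1, -0.04 without Zeb1Prx1 replicate 3 and 0.28 without WT replicate 3. The ligands were in a similar ratio in each library: Gas6 had 10.9, 9.14 and 13.0 times the FPKM of Pros1 in the WT libraries and 8.95, 10.4 and 11.9 times in the mutant ones. That ratio varied less than Gas6 itself, which spanned 2.30-fold over the 6 libraries.

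**Figure D3:**
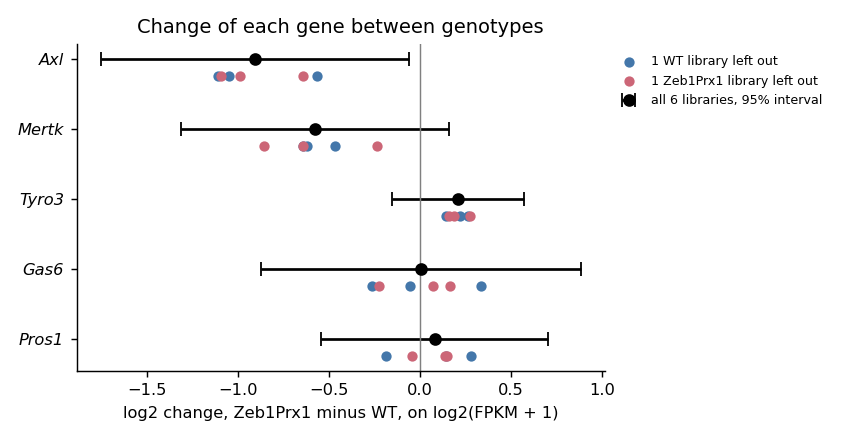
Log2 change of each gene, Zeb1Prx1 minus WT on log2(FPKM + 1): black points with 95% intervals are from all 6 libraries, and coloured points from fits with 1 library left out. The interval of Axl, -1.76 to -0.06, lies below 0 before adjustment, while for Gas6 and Pros1 the left-out fits fall on either side of 0.

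By mean FPKM over the 6 libraries the order was Gas6 (530), Axl (62.3), Pros1 (48.8), Mertk (13.4) and Tyro3 (1.97). Gas6 exceeded 99.6% of the tested genes, Axl 94.3%, Pros1 92.6%, Mertk 69.6% and Tyro3 14.8%. Axl and Pros1 were the neighbours in this order that did not differ beyond their spread. Axl was 3.93, 1.15 and 1.03 times Pros1 in WT and 1.01, 1.18 and 0.479 times in the mutant. The other neighbours kept their order in every library: the lowest Gas6 value was 348 FPKM, Pros1 was never under 31.9, Mertk stayed between 5.99 and 18.5, and Tyro3 was at most 2.39.

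Set against markers of the cell types in the cultures, the receptors and the ligands differed in which libraries were high. All 20 macrophage markers were tested, and none was at 0 in all libraries. Their summed level was 12228 to 15176 FPKM in WT and 10241 to 21241 in the mutant, most of it Lyz2 (16368 of the 21241 in Zeb1Prx1 replicate 2). Of the 20 markers, 15 had a log2 change below 0, with a median of -0.44, and 9 were lower with no overlap (background 11.8%). Of these 9, the scavenger receptor Cd163, reached 1 FPKM in WT libraries only, so the filter fixed its direction. The surface marker Adgre1 (F4/80), outside the naming rule, had 215, 230 and 250 FPKM in WT and 164, 119 and 117 in the mutant, with no overlap. Axl was 0.583, 0.253 and 0.254 times Adgre1 in WT and 0.279, 0.445 and 0.239 times in the mutant, ranges that overlap. The part of macrophage transcripts in the values of Axl and Mertk was not tested. The covariate fits given above cannot tell it apart from genotype, because the covariate did not overlap between genotypes. Mean log2(FPKM + 1) of the 20 markers was 7.06, 7.13 and 7.16 in WT and 6.71, 7.03 and 6.47 in the mutant. With this covariate the SE of the Axl change was 0.52, against 0.36 without it. Among the mutant libraries the marker mean was highest in replicate 2, where Mertk was lowest.

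Of 20 skeletal stromal markers, none was at 0 in all libraries and 18 were tested; 6 had a change below 0, with a median of 0.16. Without WT replicate 1 there were 9 below 0 and the median was 0.03, and without Zeb1Prx1 replicate 2 the median was 0.49. Their summed level was 2702 to 4004 FPKM in WT and 3548 to 6535 in the mutant. WT replicate 1, lowest for the stromal list, was also the lowest of the 6 for Gas6 and Pros1 and the highest for Axl. Zeb1Prx1 replicate 3, highest for the stromal list (5.81), was the lowest for Axl and the second-highest for both ligands. The markers did not move as one: WT replicate 1 was the lowest of the 6 libraries for 11 of the 20 and the highest for 1 (Eng), and Postn, Pdpn and Eng were higher there than in the other WT libraries. With the stromal mean as a covariate, the change of Axl was -0.64 (SE 0.15; limma adjusted p = 0.251) and that of Mertk -0.68 (adjusted p = 0.292).

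Markers of other cells were low, apart from those of cartilage and bone and a part of the osteoclast list. The chondrocyte list summed to 14.5, 205 and 155 FPKM in WT replicates 1, 2 and 3 and to 558, 151 and 2548 in the mutant. Col2a1 had the highest mean over the 6 libraries (3.62 ± 2.18 against 539 ± 573). In WT it was low, and Comp made up 195 of the 205 in replicate 2 and 144 of the 155 in replicate 3. Of 12 chondrocyte markers 6 were tested and lay above 0, but Acan and Col11a2 passed the filter only through the mutant libraries, which fixed their direction. The osteoblast list summed to 1863 to 4178 and 2878 to 4538 FPKM, most of it Spp1, which macrophages also express, with 9 of 10 tested genes above 0. Osteoclast markers, of which Ctsk led, summed to 63.8 to 76.1 and 77.5 to 89.5 FPKM, with 4 of 6 tested below 0. In that list Calcr, Ocstamp, Dcstamp and Oscar stayed below 1 FPKM in every library. Endothelial, lymphocyte and neutrophil or mast cell lists, led by Vwf, Cd4 and Camp, summed to at most 5.18, 4.28 and 1.81 FPKM in any library, and Cldn5, S100a9 and Mcpt4 were listed at 0 in all 6. The erythroid list reached 22.5 FPKM, nearly all of it the transferrin receptor Tfrc, with Hba-a1, Hba-a2, Hbb-bt and Slc4a1 at 0.

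**Figure D4:**
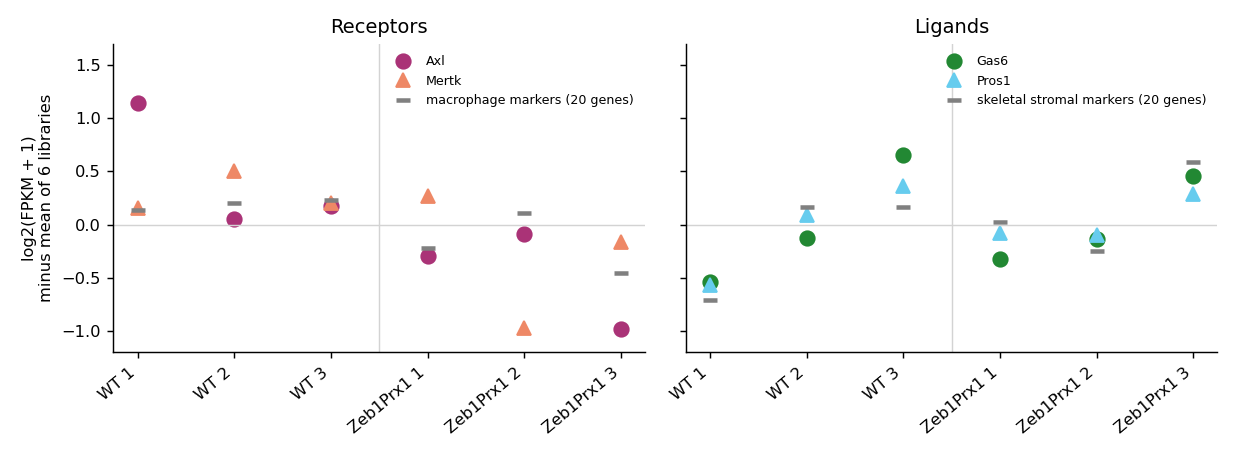
Log2(FPKM + 1) minus its mean over the 6 libraries for the receptors Axl and Mertk with the mean of 20 macrophage markers (left), and for the ligands with the mean of 20 skeletal stromal markers (right). Gas6, Pros1 and the stromal mean are lowest in WT replicate 1, where Axl is highest, and Mertk is lowest in Zeb1Prx1 replicate 2.

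Likeness of profile was measured as the root mean square difference of log2(FPKM + 1), centred per gene, over the 6 libraries. Nearest to Axl were C5ar1, the complement C5a receptor of myeloid cells (0.19), Fam198b (0.19) and the chromatin protein gene Hmga1 (0.19), each highest in WT replicate 1 and lowest in Zeb1Prx1 replicate 3. Nearest to Mertk were Hcfc1 (0.06), Arel1 (0.07) and Birc6 (0.07), which were all lowest in Zeb1Prx1 replicate 2 and have gene lengths of 8360, 6044 and 28830 bases. Tyro3 was followed by Tmed2 (0.01), Hdhd2 (0.03) and Cinp (0.03), but it varied so little (0.14 from its own mean) that many profiles lie close to it. Gas6 was nearest to Zfp503 (0.17), Trim30d (0.18) and the dynamin gene Dnm1 (0.18), and Pros1 to Csad (0.06), Samd14 (0.08) and Zfp503 (0.11). Zfp503 was thus named for both ligands. Among the members themselves Gas6 and Pros1 were the closest pair (0.19), and Axl and Gas6 the farthest (0.93). The distances describe 6 libraries and carry no test.

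The wider pathway was read from 5 lists with 87 genes, of which 72 were tested. None passed over all genes by limma or by voom (smallest adjusted p = 0.258), 23 had an unadjusted p under 0.05 and 27 showed no overlap; these are 31.9% and 37.5% of the tested genes, where all tested genes give 15.1% and 24.4%. The median log2 change was -0.15 over the 72 genes and 0.02 over all tested genes. The lists were chosen with earlier results known, so these shares are descriptions.

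The list of the vitamin K cycle and other Gla proteins was mostly above 0. It mixes enzymes of carboxylation, the modification that both ligands need, with other proteins that carry it. Its median therefore does not describe the enzymes alone. Of 16 listed genes 8 were tested, and 6 of them had a change above 0, with a median of 0.69. Ggcx, the carboxylase itself, had 16.0 ± 2.04 FPKM in WT and 18.9 ± 4.99 in the mutant, with overlap (log2 change 0.20, limma adjusted p = 0.664). Mgp, a carboxylated inhibitor of calcification, had 61.3, 86.3 and 154 FPKM in WT and 136, 123 and 192 in the mutant, with overlap. Prrg2, a membrane protein with a Gla domain, had 6.37, 9.12 and 7.12 against 13.4, 17.5 and 19.4, higher in each mutant library (log2 change 1.06, SE 0.19, limma adjusted p = 0.258). Its relative Prrg4 lay the other way, 4.92, 2.59 and 2.86 against 1.95, 0.526 and 1.72, with no overlap (log2 change -0.92, adjusted p = 0.292). Bglap and Bglap2, close copies whose reads may be divided uncertainly, belong to this list and to the osteoblast list.

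Other routes of phosphatidylserine recognition had more members below 0 than above. Of 22 genes 17 were tested; 11 had a change below 0, with a median of -0.21, and 5 were lower with no overlap against 0 higher (11.8% and 12.6% of all tested genes). Without Zeb1Prx1 replicate 2 the median was -0.38. The most abundant were Thbs1, a matrix glycoprotein (1225 ± 225 against 1299 ± 348 FPKM), and the complement genes C1qb (1184 ± 96.1 against 1042 ± 278) and C1qa (779 ± 44.2 against 633 ± 152), all with overlap. Cd300lb, a myeloid receptor for phosphatidylserine, had 52.6, 57.9 and 46.8 FPKM in WT and 34.6, 37.8 and 31.4 in the mutant (log2 change -0.58, SE 0.16, limma adjusted p = 0.273). The scavenger receptor Cd36 had 19.6, 8.22 and 13.4 against 7.96, 4.25 and 4.32 (log2 change -1.15, adjusted p = 0.275).

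Genes that expose or restore phosphatidylserine had 4 of 7 tested members below 0, from 9 listed, with a median of -0.15, which was -0.28 without WT replicate 1. Tmem30a, the partner subunit of the flippases, had 41.4 ± 2.86 against 47.7 ± 4.86 FPKM, and Plscr3 24.6 ± 3.72 against 27.4 ± 3.22. The scramblase gene Ano6 had 15.1, 15.4 and 15.3 FPKM in WT and 11.9, 6.26 and 8.42 in the mutant (log2 change -0.77, SE 0.22, limma adjusted p = 0.273).

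The engulfment machinery, which remodels actin below the receptors, had all 18 listed genes tested and 15 of them below 0, with a median of -0.31. Of these genes 11 were lower with no overlap and 1 higher (11.8% and 12.6% of all tested genes). The small GTPase genes Rhog (125 ± 7.93 against 111 ± 32.5 FPKM), Rac1 (92.8 ± 9.08 against 86.2 ± 4.12) and Rac2 (59.7 ± 10.1 against 50.9 ± 20.9) overlapped between genotypes. Dock2, a Rac activator of leukocytes, had 15.5, 17.5 and 16.5 FPKM in WT and 10.9, 8.17 and 7.63 in the mutant (log2 change -0.83, SE 0.16, limma adjusted p = 0.258). Elmo3, an adaptor of the same family of complexes, was the member that was higher, with 0.314, 0.467 and 0.71 FPKM against 2, 1.64 and 3.93 (log2 change 1.19, SE 0.27, adjusted p = 0.258). Elmo3 passed the filter on low values only through the mutant libraries. Without Zeb1Prx1 replicate 2 it no longer passed that filter, and 15 of the other 17 genes were below 0. The macrophage list also had 15 of 20 genes below 0, and its part in these values was not tested.

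Signalling, shedding and feedback genes of the pathway divided evenly, with 11 of 22 below 0 and a median of -0.02. Leaving out WT replicate 1 gave a median of -0.11, and leaving out Zeb1Prx1 replicate 2 gave 0.04. Akt1, a kinase below the receptors, had 76.8 ± 8.68 against 79.0 ± 2.30 FPKM, and the adaptor Grb2 59.2 ± 3.15 against 51.6 ± 7.15. Adam10, a protease that sheds ectodomains of membrane receptors, had 37.4, 39.9 and 34.8 FPKM in WT and 31, 24.2 and 28.7 in the mutant, with no overlap (log2 change -0.41, limma adjusted p = 0.302). Socs1, a feedback inhibitor of cytokine signalling that TAM receptors can induce, had 1.97, 1.72 and 2.17 against 3.34, 2.65 and 3.24 (log2 change 0.46, adjusted p = 0.281). Twist1, a transcription factor reported downstream of Axl, had 18.5, 16.6 and 25.2 against 26.3, 28.0 and 40.6 (log2 change 0.62, adjusted p = 0.302).

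**Figure D5:**
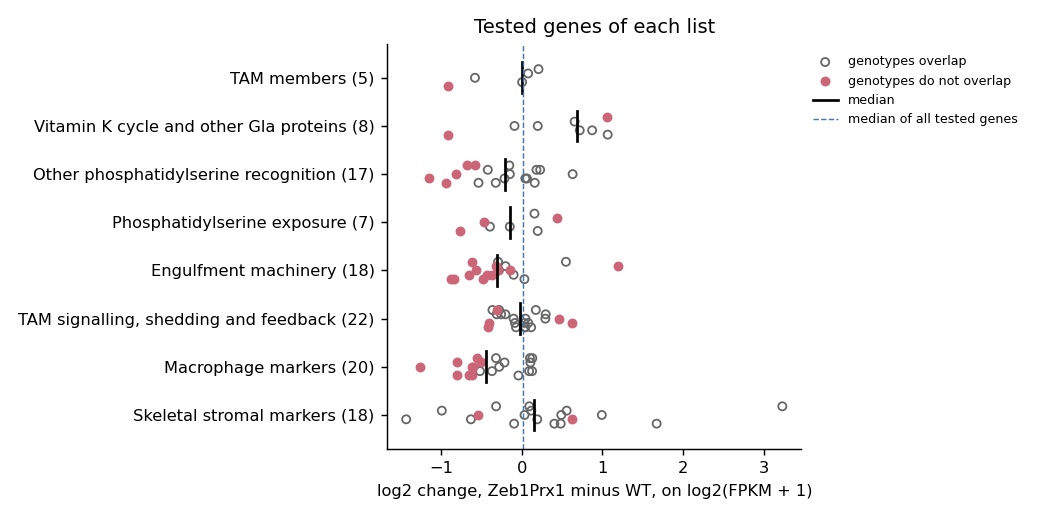
Log2 change (Zeb1Prx1 minus WT on log2(FPKM + 1)) of each tested gene by list, with the number tested in brackets; filled points mark genes whose genotypes do not overlap, black bars the list medians and the dashed line the median of all tested genes, 0.02. Among the 8 lists drawn (the chondrocyte, osteoblast and other marker lists are not), medians run from -0.44 for the macrophage markers to 0.69 for the vitamin K list, and Axl is the filled point among the TAM members.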

How the data were processed

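RNA of 6 libraries, 3 WT and 3 Zeb1Prx1, was measured by paired-end sequencing, per the labels' protocols. The authors deposited 1 table of FPKM per gene that also holds names, coordinates and a length for each gene, per the file headers. Per the submitters' processing notes the genome build was mm10. The aligner, counter and strand setting: not given in the sources used here. Gene length in the deposited table is another quantity, in bases, and equalled the GENCODE M21 exon union for the 5 genes. Multiplying FPKM by length and dividing by a step found for each library gave whole fragment numbers for all 127408 non-zero values (tolerance 1e-06). Depth was 14724357 to 18354894 fragments. FPKM were tested as log2(FPKM + 1) with limma 3.58.1 (R 4.3.3) with an intensity trend, over the 12534 genes with at least 1 FPKM in at least 3 libraries, Benjamini-Hochberg adjusted over all, threshold 0.05. Intervals of fragments are exact Poisson (95%) and cover counting error only. Replicate libraries differed beyond sampling noise (median chi-square per gene 3.83 to 20.2).

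The members and lists were chosen with earlier results of these data known. Beside the members, a rule named the 3 most abundant genes and the 2 with the smallest p in each pathway list, the 3 most abundant macrophage and stromal markers, 1 for other marker lists, and the 3 protein-coding genes of at least 5 FPKM nearest in profile to each member; some genes the rule or lists hold are not reported here. Alternatives were other pseudocounts (0.1, 0.5), filters and scalings, the replicate number as a block, no trend, library weights, protein-coding genes, voom, marker covariates and leaving out each library. Genes not named by the rule but printed were Adgre1, Csf1r, Cd163, Postn, Pdpn, Eng, Acan, Col11a2, Comp, Calcr, Ocstamp, Dcstamp, Oscar, Tmem255b, Gm14011, Vav3, Bglap, Bglap2 and the markers at 0, chosen after their values were seen.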

Additional observations from a re-analysis of the deposited data

How the results depend on the processing

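The log2 changes of Axl and Mertk stayed below 0 in all 20 alternatives (-1.15 to -0.47 and -1.15 to -0.24) and that of Tyro3 above 0 in 19 (0.10 to 0.30; under a mean of at least 5 FPKM it was not tested); none passed, with a smallest adjusted p of 0.07 for Axl, with library weights. Gas6 and Pros1 changed sign: Gas6 had -0.17 after scaling to equal FPKM totals, -0.0090 with median-of-ratios scaling, -0.33 with quantile normalization, -0.058 by voom, -0.22 with the macrophage and -0.21 with the stromal covariate. Pros1 had -0.088, -0.082, -0.051 and -0.095 with the equal totals, quantile, macrophage and stromal settings. Leaving out single libraries gave -0.26 to 0.33 for Gas6 and -0.19 to 0.28 for Pros1; the cause was not tested. Library weights called 447 of the 12534 tested genes, and 6 of the 72 in the pathway lists (Cd300lb, Dock2, Prrg2, Ano6, Vav3 and Elmo3). Elmo3 had passed the filter only through the mutant libraries. The weights of the mutant libraries were uneven, 0.655, 0.226 and 2.82 for replicates 1, 2 and 3. Leaving out single libraries gave 0 to 1 genes, the 1 without Zeb1Prx1 replicate 2. Under equal totals the median change of all genes was -0.12 in place of 0.02; at an unadjusted p under 0.05 there were then 614 genes higher and 1270 lower, in place of 1022 and 875.

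With the replicate block, Axl had -0.91 (limma adjusted p = 0.443), 0 genes passed and 1347 had an unadjusted p under 0.05. The deviations of same-numbered libraries from their genotype means correlated at 0.03, -0.41 and 0.08. Differently numbered pairs ran from -0.48 (WT 1 with Zeb1Prx1 3) to 0.46 (WT 2 with Zeb1Prx1 3). Deviations from a mean of 3 libraries are tied to each other, so these values cannot show whether the numbers pair the libraries. The difference in Axl share, -5.37 percentage points, was -10.9 to -1.28 with single libraries left out. Chosen after seeing the data, list counts below 0 without WT replicate 1 or Zeb1Prx1 replicate 2 moved by over 1.5 times for the vitamin K list (2 to 1) and the osteoblast list (1 to 2, with a median of 0.72 to 0.39). The lymphocyte and erythroid lists had 1 tested gene each. Without Zeb1Prx1 replicate 2 its change went from -0.44 to -0.21 (lymphocyte) and from 0.05 to 0.30 (erythroid). Without WT replicate 1 the erythroid value was 0.28. The chondrocyte median went from 2.47 to 2.31 without WT replicate 1. Without Zeb1Prx1 replicate 2 it was 2.95, with 4 genes tested in place of 6. Leaving out WT replicate 1 took the osteoblast median to 0.97 and that of the vitamin K list from 0.69 to 0.52. Some medians of other lists are given with those lists. All 20 macrophage markers were below 0 without Zeb1Prx1 replicate 2. Depth limits Tyro3 most, with a counting interval of up to 16.8% on either side.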
